A study of Mus musculus with 6 samples.

Results

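Ctnna2, Lrp1b and Cntnap2 are 3 very long genes of the nervous system, and they were chosen by their number of CHH regions in a list of differentially methylated regions of the mouse embryo. All entries under these gene names were taken, whatever the cytosine context, and collapsed to distinct regions. This gave 32 of the 9707 distinct regions of the list, 11 for Ctnna2, 11 for Lrp1b and 10 for Cntnap2. The number of regions, their direction and their levels therefore come from the contrast that chose the genes and are given as a description, with no test.

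The embryos were of C57BL/6 background and were cultured from the fertilised egg to the blastocyst at embryonic day 4.5. As zygotes, all had been microinjected with small RNAs (sRNAs) from mouse sperm at 2 ng/µl, with 3 embryos receiving those of normal mice (the normal group) and the other 3 those of stress-induced depressed mice (the depressed group). Single embryos were collected about 108 h after injection and sequenced after bisulfite conversion, which turns unmethylated cytosine into a base read as thymine. All groups carried injected RNA, and no uninjected embryos were used here. Of the 6 libraries the table gives only 1 mean level per group and region. No level has a spread over embryos, its read depth is unknown, and whether a difference exceeds the variation between embryos could not be tested.

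In mammals DNA methylation is written mostly at CG, and cytosines in the contexts CHG and CHH (H is any base but G) carry little of it in most cells, with neurons and oocytes as known exceptions. A cytosine that escapes conversion is read as methylated in every context, and conversion rates were not used here. Ctnna2 encodes αN-catenin, which ties cadherins at neuronal contacts to the actin cytoskeleton. Lrp1b encodes a very large endocytic receptor of the low-density lipoprotein (LDL) receptor family. Cntnap2 encodes CASPR2, a neurexin-related membrane protein that gathers potassium channels beside the node of Ranvier. All 3 are known for expression in the brain, and the blastocyst has no neurons.

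All 28 CHH regions in the 3 genes were higher in the depressed group, and the 4 regions in other contexts were all lower. Across the list, 79.6% of 6943 CHH regions were higher, and 83.2% of those listed with an intron, so this direction is that of most regions listed. For the other contexts, 91.0% of 1884 CHG regions and 98.5% of 880 CG regions of the list were lower. Each of the 32 regions was listed in an intron of its gene, and 0 were listed in an exon, untranslated region or promoter of Ctnna2, Lrp1b or Cntnap2. In the CHH regions the depressed mean ran from 2.25 to 9.12% with a median of 4.78%, and the normal mean from 0.143 to 2.31% with a median of 0.826%. The 2 ranges overlapped, and every region was higher in the depressed group by 2.02 to 8.67 percentage points. Over all 5528 higher CHH regions the medians were 4.76% and 0.769%, so the levels of these genes lay in the middle of the list.

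Only 1 of the 32 regions reached the promoter of a protein-coding gene. It lies in an intron of Ctnna2 and is listed for the promoter of Lrrtm1, a leucine-rich synaptic adhesion gene nested inside Ctnna2, and for 2 CpG island shores. The region (mm10, chromosome 6, 77241990 to 77242167) held 126 CHH cytosines in 178 bp, and its mean was 2.96% in depressed-group embryos against 0.921% in the normal ones. Its last base was 310 bp upstream of an Lrrtm1 start in RefSeq, whose GRCm38.p6 table also holds a wider Lrrtm1 span (77229210 to 77259915) that includes the region. The 250 bases before that start (chr6:77242227-77242476, plus strand) are shown with each CG in capitals, since they are the promoter sequence nearest to a listed region of the 3 genes and begin 59 bases beyond its end.
Lrrtm1 promoter: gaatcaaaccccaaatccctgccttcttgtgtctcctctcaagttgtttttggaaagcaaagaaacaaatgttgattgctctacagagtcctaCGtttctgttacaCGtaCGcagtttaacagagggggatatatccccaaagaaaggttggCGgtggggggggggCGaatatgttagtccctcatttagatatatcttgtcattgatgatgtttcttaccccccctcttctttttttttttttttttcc
This stretch holds 5 CG dinucleotides, against a median of 6 in the 250 bases before the start over 32851 RefSeq promoter windows, and 32.4 CHH cytosines per 100 bp counted on both strands. The neighbouring CHH region held 70.8 per 100 bp in the deposited table, which does not say whether it counts both strands. For Ctnna2 the nearest listed region was 19.9 kb from the RefSeq promoter window, and for the windows of Cntnap2 the nearest were 75.9 kb and 42.1 kb away.

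**Figure D1:**
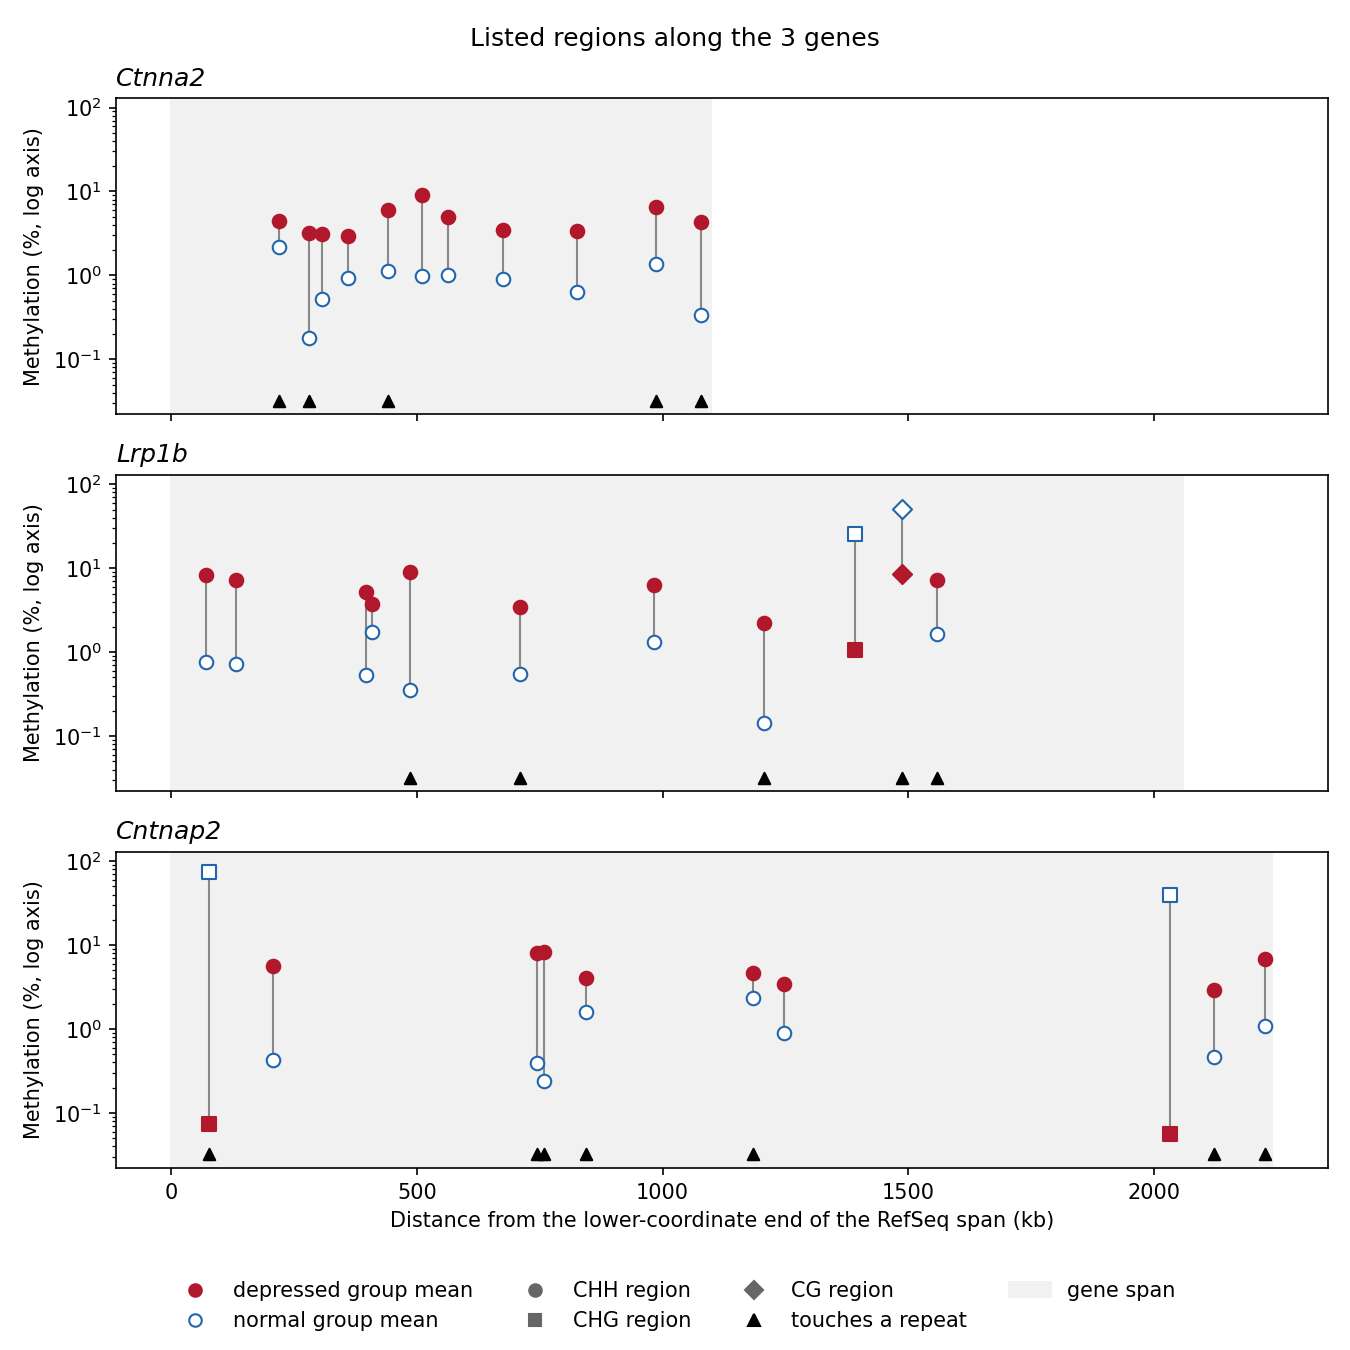
Group mean methylation (percent, log axis) of the 32 listed regions against the distance in kb from the lower-coordinate end of each RefSeq gene span, which is shaded. Filled red markers are the depressed and open blue markers the normal group, circles are CHH, squares CHG and diamonds CG regions, and black triangles mark regions that touch a repeat. Red lies above blue at all 28 circles and below it at the 4 other markers.

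Ctnna2, the smallest of the genes (mm10, chromosome 6, 76881637 to 77979815 in RefSeq, 1.10 Mb), carried the most CHH regions, 11, and no region of another context. The RefSeq promoter window puts its start at the higher-coordinate end. Its longest and strongest region (77867295 to 77867849, 555 bp, 326 CHH cytosines) was at 6.49% in depressed-group embryos against 1.35% in the normal ones. The authors' region statistic there, a score whose calculation the table does not describe, was 2670, the rank 8 value among all 5528 higher CHH regions, and 99.9% of them had no larger one. The region touches IMPB_01, which the table classes as a satellite repeat. Its weakest region (77557212 to 77557369) had a statistic of 307, next to the smallest absolute value of any CHH region in the list, 306.6, and was at 3.49% against 0.904%. Within 1 gene the statistic thus ran from near the smallest of the list to among its highest.

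The other Ctnna2 regions are given from low to high coordinate, the depressed mean first. The first 3 were at 4.51% against 2.20% (start 77100742), 3.23% against 0.179% (start 77161077) and 3.11% against 0.519% (start 77187779). The normal level differed more among these neighbours than the depressed level. Then came the Lrrtm1 promoter region, a region at 5.97% against 1.14% (start 77323750), and one at 9.12% against 0.987% (start 77392009). That last one had the highest depressed level of the 28 regions, and the Lrrtm1 promoter region the lowest of Ctnna2. Toward the start of the gene the levels were 4.92% against 1.02% (start 77445575), 3.35% against 0.636% (start 77706959) and 4.31% against 0.334% (start 77959585). The region starting at 77323750 is also listed for an exon and transcript end of a gene that the table gives by Ensembl number only.

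Lrp1b (chromosome 2, 40595290 to 42653598, 2.06 Mb) carried 9 CHH regions, 1 CHG region and 1 CG region. Its CHH regions had the highest median depressed level, 6.29%, against 4.31% in Ctnna2 and 5.12% in Cntnap2, while the normal medians were 0.729, 0.921 and 0.675%. The strongest one (41577539 to 41577919, statistic 1035) was at 6.29% in depressed-group embryos against 1.34% in the normal ones. The region starting at 41081354 was at 9.03% against 0.359%, the largest difference of all 28, at 8.67 percentage points. The smallest, 2.02 points, lay 76.9 kb away in the same gene (start 41004284, 3.77% against 1.76%). The largest and the smallest difference among the 28 were thus next to each other in Lrp1b.

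At the lower-coordinate end, Lrp1b regions were at 8.40% against 0.766% (start 40666432), 7.28% against 0.729% (start 40726381) and 5.25% against 0.532% (start 40990864). In these 3 the normal level varied little and the depressed level was lower from one to the next. Farther on, a region that also lies in the span of the long noncoding gene Gm30138 was at 3.47% against 0.546% (start 41304093). The region starting at 41802468 was at 2.25% against 0.143%, the lowest of the 28 in both groups. The last one, starting at 42153206, was at 7.26% against 1.63%. No CHH region was listed in the 500 kb toward the higher-coordinate end.

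Cntnap2 (chromosome 6, 45060061 to 47301393, 2.24 Mb), whose start lies at the lower-coordinate end, carried 8 CHH regions and 2 CHG regions. Its strongest CHH region (45267405 to 45267629, statistic 715) was at 5.62% in depressed-group embryos against 0.430% in the normal ones. Of the 8, only this one had a statistic above the median of all higher CHH regions, 501, against 8 of 11 in Ctnna2 and 5 of 9 in Lrp1b. A pair of regions 15.0 kb apart stood at 8.01% against 0.393% (start 45803523) and 8.21% against 0.239% (start 45818692). These 2 neighbours, each in repeats of different kinds, were alike in both groups and had the largest differences in the gene, 7.62 and 7.97 percentage points.

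The remaining Cntnap2 regions differed less, by 2.32 to 5.81 percentage points. They were at 4.03% against 1.60% (start 45904530), 4.63% against 2.31% (start 46243866) and 3.48% against 0.886% (start 46307905). The normal level of 2.31% was the highest of the 28. Near the end of the gene they were at 2.88% against 0.465% (start 47182016) and 6.90% against 1.08% (start 47286577). The latter lies 14.7 kb from the end of the RefSeq span.

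**Figure D2:**
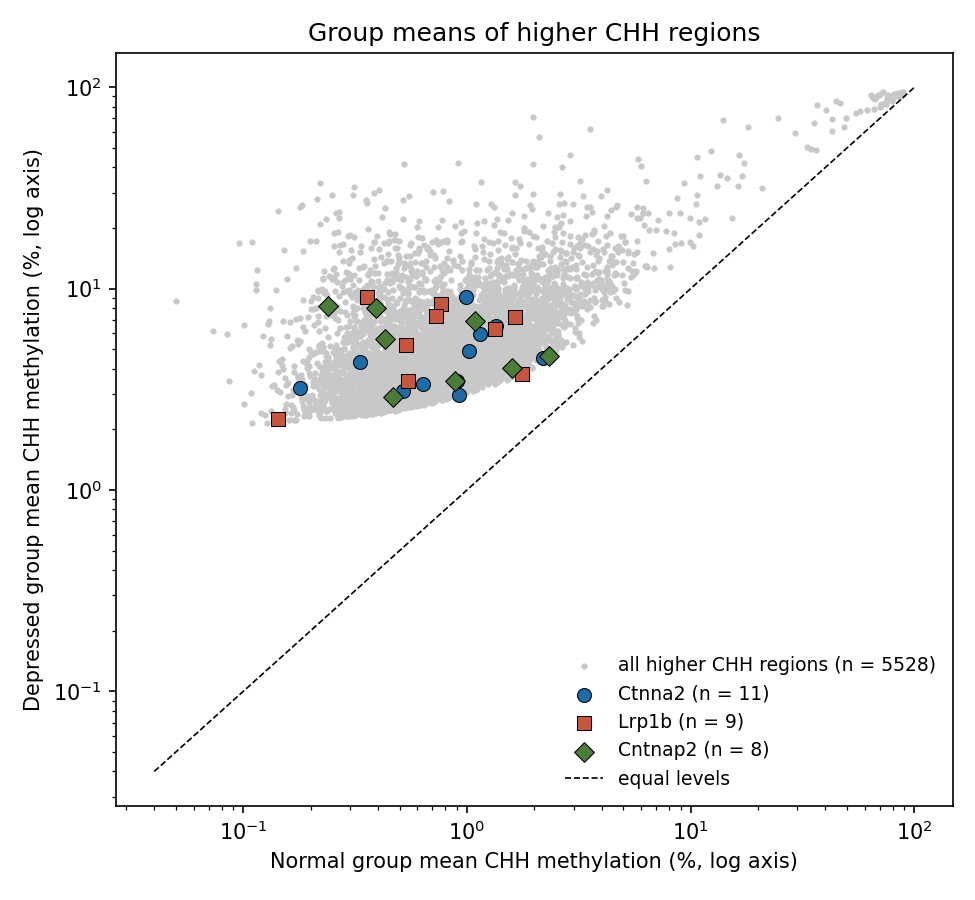
Mean CHH methylation of the depressed group against that of the normal group (percent, both log axes) for all 5528 higher CHH regions in grey and for the 28 regions of Ctnna2 (circles), Lrp1b (squares) and Cntnap2 (diamonds). Points above the dashed line are higher in the depressed group. The grey points were selected for that direction, and the coloured ones are all CHH regions listed for these genes, whatever their direction. The coloured points lie within the grey cloud between 2.25 and 9.12%.

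Within the list of higher CHH regions the members were spread over the quartiles of each measure. Of the 28, 9 lay below the lower quartile of the depressed level (3.54%), 14 between the quartiles and 5 above the upper one (7.29%). For the normal level these numbers were 8, 13 and 7, with quartiles at 0.471 and 1.32%. The median difference was 3.94 percentage points, against 3.81 in all higher CHH regions. The levels of the 3 genes were thus those of the list they come from.

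The CHH regions were rich in cytosine. They held a median of 51.3 CHH cytosines per 100 bp, from 29.7 to 70.8, against a median of 50.0 in all higher and of 21.2 in all lower CHH regions. Ctnna2 had the highest median with 56.04, ahead of Cntnap2 with 49.2 and Lrp1b with 47.7, and the ranges of the genes overlapped. For scale, the RefSeq promoter windows of 300 bases held a median of 32.3 CHH cytosines per 100 bp on both strands with an upper quartile of 35.3, and 27 of the 28 regions lay above that quartile. Only 7 windows (0.0213%) reached the members' median. Promoters are no sample of introns, and the deposited table does not say whether it counts both strands. Regions with more cytosines had larger values of the authors' statistic, with a Spearman correlation of 0.88 over the 5528 higher CHH regions and of 0.89 over the 28, a description over regions of the same libraries.

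**Figure D3:**
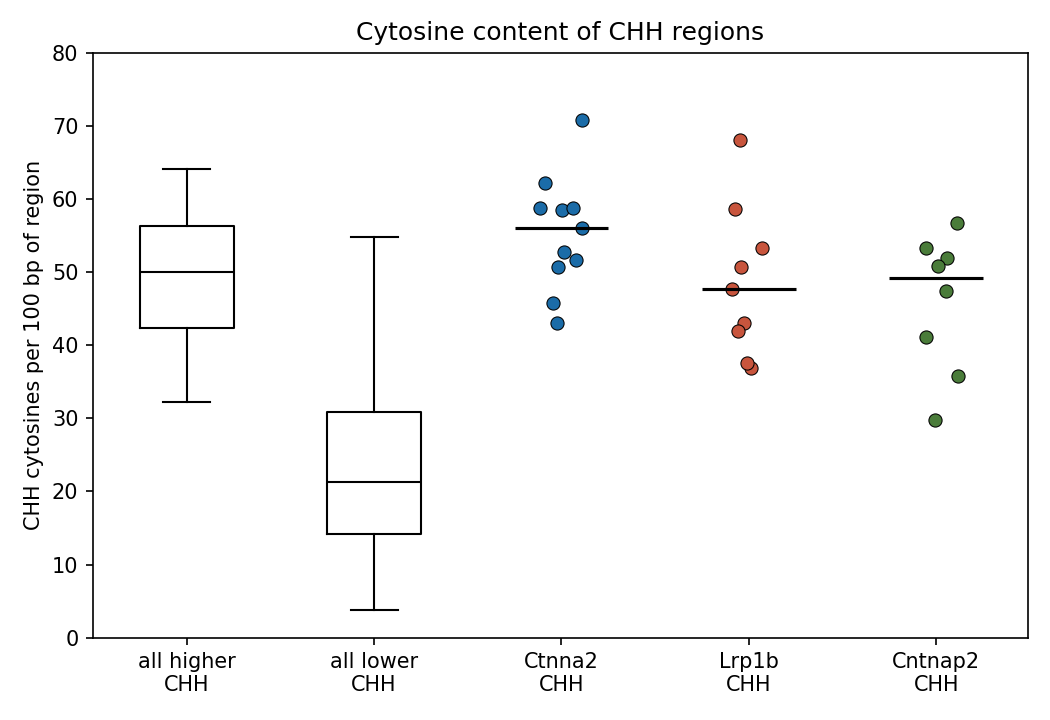
CHH cytosines per 100 bp of region, with boxes for all higher and all lower CHH regions of the list (median, quartiles and whiskers from the 5th to the 95th percentile) and points for each CHH region of the 3 genes with a bar at their median. The points lie between 29.7 and 70.8, around the box of the higher regions and mostly above that of the lower ones.

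The regions were scattered singly along the genes and none adjoined another. In Ctnna2 the gaps between neighbouring CHH regions ran from 26.5 to 160 kb with a median of 74.8 kb, and 4, 4 and 3 regions fell in the lower, middle and upper part when the span was cut in 3 equal parts. In Lrp1b the gaps ran from 13.3 to 351 kb with a median of 224 kb, and these parts held 5, 3 and 1. In Cntnap2 they ran from 15.0 to 874 kb with a median of 104 kb, and the parts held 2, 4 and 2. By these parts Ctnna2 was the most evenly filled, although the 219 kb at its lower-coordinate end held no CHH region. In Cntnap2, 39.0% of the span was a single stretch with no CHH region, from 46308081 to 47182016. From the first to the last CHH region was 78.2% of the span in Ctnna2, 72.2% in Lrp1b and 90.1% in Cntnap2. All CHH regions together covered 0.234% of the Ctnna2 span, 0.0870% of Lrp1b and 0.0601% of Cntnap2. In the 1 Mb on each side of the spans there were 5 CHH regions beside Ctnna2, 2 beside Lrp1b and 5 beside Cntnap2, all higher too, but sequence without an annotation has no entry in the list.

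Repeats were touched by 15 of the 28 CHH regions (53.6%), 5 of 11 in Ctnna2, 4 of 9 in Lrp1b and 6 of 8 in Cntnap2. In the list, 62.6% of all higher CHH regions touched a repeat, and 39.3% of those with an intron entry, which all 28 have. The depressed-group medians were 4.63% with and 4.92% without a repeat, and the normal-group medians 0.546% with and 0.886% without one. Long terminal repeats of endogenous retroviruses were the commonest class with 8 regions (28.6%, against 25.6% of all higher CHH regions). LINE elements had 4 (14.3% against 13.1%), SINE elements 3 (10.7% against 17.3%) and satellites 2 (7.14% against 13.7%), and a region may touch more than 1 class. These comparison shares are over all higher CHH regions. Class shares among those with an intron entry, which touch repeats less often, are not given here. The classes were unevenly shared, since 3 of the 4 LINE regions lay in Lrp1b, both satellite regions in Ctnna2 and 4 of the 8 retroviral ones in Cntnap2.

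Some of the repeats recurred among the genes and across the list. Both satellite regions of Ctnna2 touched IMPB_01, the repeat most often touched by higher CHH regions, 759 of them, whose median levels were 5.19% in depressed-group embryos against 0.876% in the normal ones. The 2 repeat copies touched share positions 219 to 399 of the repeat's consensus. Of those 759 regions, 94.7% touch a copy that overlaps this stretch. The retroviral repeat RLTR31D_MM was touched once in Ctnna2 (start 77323750) and once in Cntnap2 (start 47182016), in copies with positions 102 to 181 in common. All 355 higher CHH regions in RLTR31D_MM touch a copy that overlaps that stretch, with medians of 4.96 and 0.710%. Such positions are those of the whole repeat copy, which can be longer than the region. An overlap of any length was counted, so these shares do not place the regions within the repeat. The SINE repeat B4A was also touched once in each of these genes and by 68 higher CHH regions in all. In Lrp1b the 4 repeats were all different, the LINE elements Lx2B2, L1Lx_I and Lx3A and the retroviral BGLII_B2. The Lx2B2 region (start 41081354) was the one with the largest difference, and the 12 CHH regions listed in Lx2B2 were all higher, with medians of 7.34 and 0.637%.

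The 4 regions in other contexts had normal-group levels of 25.4 to 74.2% and rested on 4 to 11 cytosines each. In Cntnap2, a CHG region with 5 cytosines (45136044 to 45136136) was at 0.0740% in depressed-group embryos against 74.2% in the normal ones, and touched the LINE element Lx5c and an exon of an unnamed Ensembl gene. A second one with 4 cytosines (47093132 to 47093235) was at 0.0559% against 39.3%. In Lrp1b, a CHG region with 11 cytosines (41987403 to 41987511) was at 1.06% against 25.4% inside the pseudogene Gm13461, and a CG region with 11 cytosines (42083612 to 42083733) at 8.57% against 51.0% in the LINE element L1MdTf_II. Of these 4 regions 0 overlapped a CHH region, and the nearest CHH regions were 69.5 to 166 kb away.

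Length bears on how many regions a gene can hold. Per Mb of RefSeq span there were 10.02 CHH regions in Ctnna2, 4.37 in Lrp1b and 3.57 in Cntnap2. The 224 other protein-coding genes of 500 kb or more had a median of 3.18 per Mb, with quartiles of 1.68 and 4.42, and the joined spans of all protein-coding genes had 3.74. Only 6 of these 224 genes were denser than Ctnna2, among them Lhfpl3 (13.2 per Mb), the neuregulin gene Nrg1 (11.99) and Fgf14 (11.4), whereas 59 were denser than Lrp1b and 90 than Cntnap2. Counted per length, Lrp1b was just under the upper quartile and Cntnap2 close to the median. Of all 227 genes of this length 89.0% had at least 1 CHH region, against 13.5% of 21900 protein-coding genes. Across the 227 genes the number of CHH regions and the span had a Spearman correlation of 0.43, a description over genes that share the same libraries. Over the 59 genes of 1 Mb or more, which include Ctnna2, Lrp1b and Cntnap2, the correlation was 0.22.

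**Figure D4:**
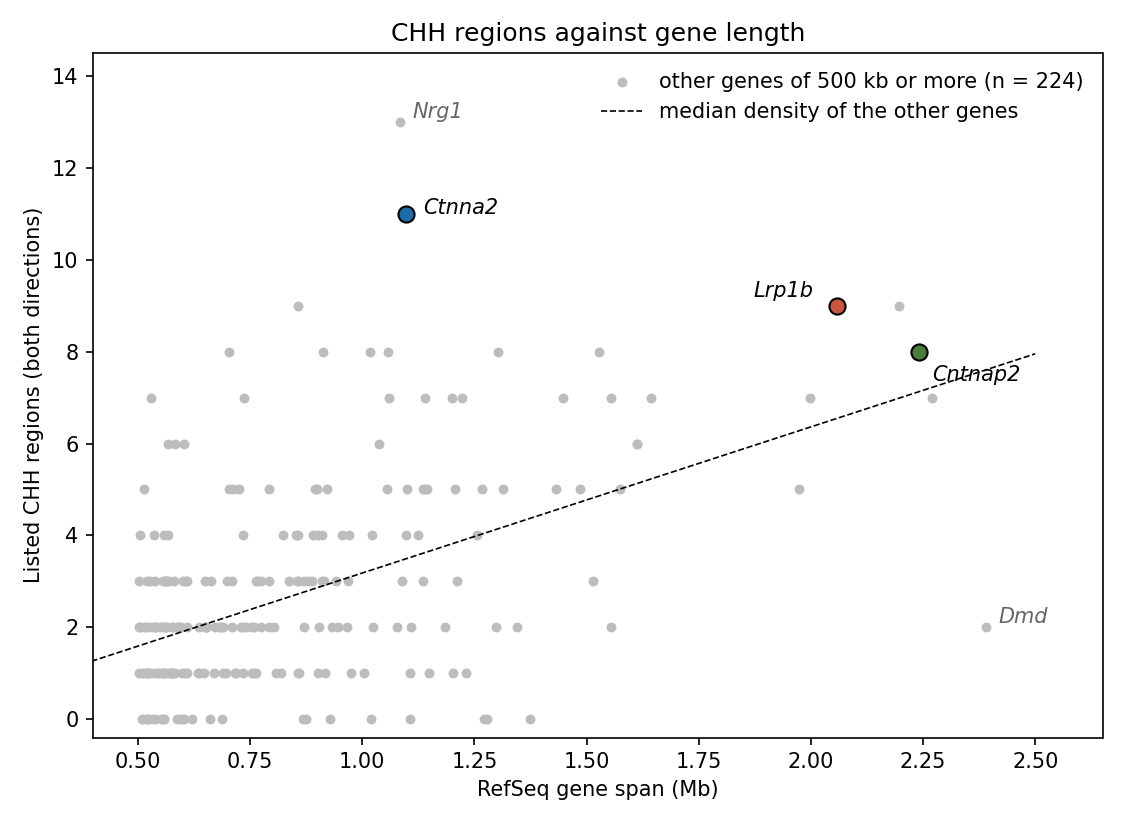
Number of listed CHH regions in both directions against RefSeq gene span in Mb for the 227 protein-coding genes of 500 kb or more, with the 3 genes in colour and the dashed line at the median density of the 224 others (3.18 per Mb). Ctnna2 with 11 regions in 1.10 Mb lies far above the line, Lrp1b with 9 in 2.06 Mb somewhat above and Cntnap2 with 8 in 2.24 Mb close to it.

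Beside the 3 genes, 14 other gene names had 8 or more CHH regions, the number of Cntnap2, which makes 17 of 3044 names with a CHH region (0.558%). In 7 of the 17 (41.2%) all regions were higher, namely Ctnna2, Lrp1b, Cntnap2, Nrg1 with 13, and Tshz2, Wwox and Gm37240 with 8 each. Across the list 79.6% of 6943 CHH regions were higher. The share of names with only higher regions is not given for names with fewer regions, so whether 41.2% is unusual was not tested. Lsamp, a cell adhesion gene of 2.20 Mb, had 9 regions of which 8 were higher, and Rbfox1, a splicing factor gene, 8 of which 6 were higher. In Celf2 5 of 9, in Fgf14 6 of 8, in Rbms3 6 of 8 and in the NMDA receptor gene Grin2b 4 of 8 were higher, and in Pde4d and Sgcd 7 of 8. For Fgfr2 (13 CHH regions) 0 regions overlapped its RefSeq span and for Pde4d 4 of 8 did, while Gm20388 (27 CHH regions) and Gm37240 matched no RefSeq name. Just below, 11 genes had 7 CHH regions, and all were higher in genes such as Csmd1, Park2, Prkg1, Ptprd and Ptprt. Among the 10 longest other genes the numbers ran from 2 to 9, with 2 in Dmd, the longest of all, and in Robo2, 5 in Dlg2 and Ctnna3, 6 in Nrxn3 and Fhit, 7 in Ptprd, Macrod2 and Csmd1 and 9 in Lsamp.

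Relatives of the 3 genes had from 0 CHH regions, also in a gene as long as the contactin gene Cntn5 (1.27 Mb), to several. Of 12 catenins, cadherins and partners, 5 had a higher and 3 a lower CHH region, against 9.11% of all 21900 protein-coding genes with a higher and 5.37% with a lower one. These shares are not matched for length, and several genes of the list are long. A CHH region was listed for 89.0% of protein-coding genes of 500 kb or more, against 13.5% of all. Ctnna3, the long α-catenin gene of 1.57 Mb, had 4 higher regions and 1 lower, the strongest at 32.2% in depressed-group embryos against 1.73% in the normal ones, above any level in Ctnna2. The cadherin gene Cdh4, of 0.457 Mb, had 4 higher regions (medians 5.39 and 0.892%) and Ctnnd2, δ-catenin of neurons, had 3 (3.86 and 0.396%). The short genes Ctnnb1 and Cdh1, for β-catenin and E-cadherin, each had 1 lower CHH region in an exon, at 0.372% against 54.6% and 0.562% against 49.0%. Ctnna1, the broadly expressed α-catenin gene of 0.136 Mb, had 0 CHH regions and 1 lower CHG region.

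Of 14 LDL receptor family genes, the longest of 0.162 Mb, 2 had a higher CHH region, Lrp2 with 2 and Lrp6 with 1, against the 9.11% of all protein-coding genes. As many, 2 genes, had a lower one (5.37% of all), Lrp10 at 0.846% in depressed-group embryos against 9.31% in the normal ones and Lrpap1 at 1.79% against 34.4%. Lower CG regions were listed for the sorting receptor gene Sorl1 with 3, Lrp1 with 2, and Lrp8, Lrp10 and Lrp11 with 1 each. Of these Sorl1, Lrp1 and Lrp11 lie on chromosomes 9 and 10, which hold 58.5% of all lower CG regions. Of 18 contactins, contactin-associated proteins, neurexins and partners, 9 had a higher and 4 a lower CHH region, where the shares of all protein-coding genes were 9.11% and 5.37%. This list too holds several long genes, and the shares are not matched for length. The CASPR-like genes Cntnap5a, Cntnap5b and Cntnap5c had 2, 1 and 3, all higher, and the short Cntnap1 (0.0161 Mb), for the paranodal CASPR, had 1 lower. Nrxn3, a presynaptic adhesion gene, had 5 higher and 1 lower, and 4 lower CHG regions. Across each list the Spearman correlation of span with the number of CHH regions was 0.69, 0.04 and 0.51, over 12, 14 and 18 genes of the same libraries.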

How the data were processed

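Per the submitters' processing notes, the tools were Bismark, SAMtools and Trim Galore (version 0.3.3), and the build was mm10. Not given in the sources used here are the program that called the regions, its cutoffs, any minimum coverage and how group means were formed from 3 embryos. Per the file headers, the deposited table gives the group means as a fraction (printed here in percent), their difference, the region length, the number of cytosines and a region statistic, a score whose calculation is not stated. Its 18732 annotation entries were collapsed by chromosome, start, end and context to 9707 regions. Group names come from the column prefixes, which match the sample titles. Of 4040 gene names, 3981 matched a symbol or unique synonym in RefSeq GRCm38.p6, from which gene spans were taken.

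The 3 genes, the lists of related genes and the descriptions were chosen with earlier results of these data known. Named beside the 3 genes were all gene names with at least 8 CHH regions, those with 7 (more than the planned 5, since 11 were tied; some are given by number only), the 10 longest other protein-coding genes and up to 10 relatives per list. Some of these genes are not reported here. No test was run, because values per embryo are not in the table. The counting steps were tested on simulated data. Alternatives were a difference of at least 10 points, at least 20 cytosines, a statistic at or above the median of its context, RefSeq overlap, merging within 1 kb, cytosine weights, midpoint distances, introns as comparison and genes of 1 Mb or more. Python 3.11.15, pandas 2.3.3, NumPy 2.4.6, SciPy 1.17.1 and Matplotlib 3.10.9 were used.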

Additional observations from a re-analysis of the deposited data

How the results depend on the processing

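No paired analysis was possible because the table holds group means only, and no embryo could be left out for the same reason. Of 57 values computed under an alternative setting, 48 stayed within 1.5 times the reported one (for levels, within 1 SD over the regions of the gene) and 9 did not. With a difference of at least 10 percentage points, 0 CHH regions were left in Ctnna2, 0 in Lrp1b and 0 in Cntnap2, since the largest difference was 8.67 points, and the share of repeats over the CHH regions of the list went from 55.4 to 34.9%. With a statistic at or above the median of its context, Lrp1b kept 5 and Cntnap2 1 CHH region, 1 of the 4 CHG and CG regions was left, and the Lrp1b median of the normal group was 1.34% in place of 0.729%. With at least 20 cytosines, 0 of the 4 CHG and CG regions were left. The share of repeats among members at 10 points or more was not computed, since no region was left. The depth behind each level is unknown.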
